A study of Bubalus bubalis with 9 samples.

Results

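The genes described here are the interleukins, the chemokines and their receptors in granulosa cells of the Chinese buffalo (Bubalus bubalis), the cells that line an ovarian follicle and nourish its oocyte. They were chosen by name: every gene whose symbol begins with IL, CXCL, CXCR, CCL or CCR followed by a digit, together with LIF, LIFR, OSMR, CSF1, CSF2, CSF3, ACKR3, TNF and TSLP. That rule found 131 of the 20801 genes in the authors' tables. They comprised 67 ligands, 57 receptors, 4 antagonists or soluble decoys and 3 genes outside these roles. The last were IL4I1, an enzyme that breaks down amino acids, and the cytokines IL16 and IL32. Receptors that clear a ligand, such as ACKR3, were counted among the receptors. CCL2, which the plan had also named, is not analysed here.

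Interleukins and chemokines are small secreted proteins that carry messages between cells. Chemokines draw cells that carry matching G protein-coupled receptors, whereas interleukins act through receptors that signal mostly by JAK kinases and STAT factors or, in the IL-1 and IL-17 families, by NF-kB. In the ovary they are known from ovulation, from the entry of leukocytes into follicles and from atresia, the process by which most follicles degenerate before they can ovulate.

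RNA-seq was made from total RNA of ovarian granulosa cells in 3 groups of 3 samples each: healthy follicles (HF), early atretic follicles (EF) and late atretic follicles (LF). The labels name no treatment, genotype or age, and whether the samples of a group came from separate animals is not said. The p-values therefore cover the spread among the 3 samples of a group, and part or all of that spread may be technical. The authors' tables give 1 mean normalized read count per group and gene, and, for each pair of groups, a log2 fold change with its p-value before and after adjustment. Values per sample are therefore not shown, and no standard deviation can be given. Each ± below is the standard error that the deposited fold change and p-value imply under a two-sided normal test, a form of test that the sources used here do not state. A gene is called higher or lower where the adjusted p in the authors' deposited table was below 0.05.

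The lowest values in each column were whole multiples of what single reads were worth, between 0.26 and 0.38 normalized reads, so a mean of 1 stood for about 3 reads over the 3 libraries of a group. Summed over the 3 libraries, the depth lay between 37600000 and 46000000 reads for healthy, 36700000 and 52500000 for early atretic and 38100000 and 44500000 for late atretic follicles. All 15 markers of granulosa cells were detected in every group, FSHR and INHA among them, and their summed mean was 995283 in healthy, 306647 in early atretic and 532394 in late atretic follicles. Of these 15 markers, 9 were lower and 1, CDH2, was higher (6.67%) in early atretic than in healthy follicles by the authors' adjusted p. Over all genes tested 4.35% were lower and 8.59% higher there. None of the markers passed in late atretic follicles, where only 0.397% of all genes were lower and 3.98% higher. The summed means of macrophage and stromal markers moved the other way. That of 16 macrophage markers was 575, 4290 and 8218 in healthy, early atretic and late atretic follicles, and that of 12 stromal markers 3676, 16840 and 21922. COL1A1 made up 767, 3425 and 6494 of the stromal sum, and the other 11 markers 2909, 13416 and 15428. Not every stromal marker followed the sum: FAP, TCF21 and POSTN had late atretic means below their healthy ones. In bulk RNA, fewer or more cells of a type cannot be told apart from less or more RNA per cell, and the part of other cell types in the results below was not tested.

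A minority of the cytokine and receptor genes was higher in early atretic follicles by the adjusted p, and none was lower. Of the 107 with a p-value, 20 were higher in early atretic than in healthy follicles, or 18.7%, against 8.59% of all 17386 genes tested. No gene of the group was lower, against 4.35% of all genes. In late atretic follicles 8 of 111 were higher than in healthy ones, or 7.21%, against 3.98% of the 17366 genes tested, and again none was lower, against 0.397% of all genes. All 8 stood also among the 20 of early atresia, among them CCR1, CXCL12, CXCR4, IL1RN, IL22RA1, IL7R and LIF. Both comparisons share the healthy samples, so this is no independent repeat, and the same overlap over all genes is not given here. Between late and early atretic follicles no member was called in either direction, where 0.0171% of all 17552 genes tested were higher and 0.0912% lower.

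At an unadjusted p below 0.05 in the authors' deposited table, 30 of 107 members (28%) were higher in early atretic follicles, against 13.7% of all genes. Lower were 3 (2.8%), against 9.82%. These 3 were IL10RB, IL1RAP and IL6R, all receptor chains. By the same measure 23 of 111 members (20.7%) were higher in late atretic follicles, where 9.2% of all genes were. Lower was 1, CCL25 (0.901%), where 2.96% of all genes were. Late against early atresia gave 2 of 112 higher, IL18RAP and IL6R (1.79%, against 2.36% of all genes). Lower were 3, ACKR3, CXCL8 and IL27RA (2.68%, against 3%), so both shares lay near those of all genes.

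The share called depended on how many reads a gene had. With a mean over both groups of 100 or more, 9 of 19 members were higher in early atretic follicles (47.4%), against 9.47% of all genes of that mean. Between 10 and 100 the count was 10 of 26 (38.5%), against 16.5%. Under 10 it was 1 of 62, the chemokine CCL24 (1.61%), against 0.789%. In late atretic follicles the counts were 2 of 18 (11.1% against 3.73%), 6 of 25 (24% against 10.1%) and 0 of 68 (against 0.207%). Members whose mean reached 10 had a median log2 fold change, by the authors' deposited tables, of 0.73 in early and 0.76 in late atresia, beside -0.03 and 0.00 for all genes of that mean.

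**Figure D1:**
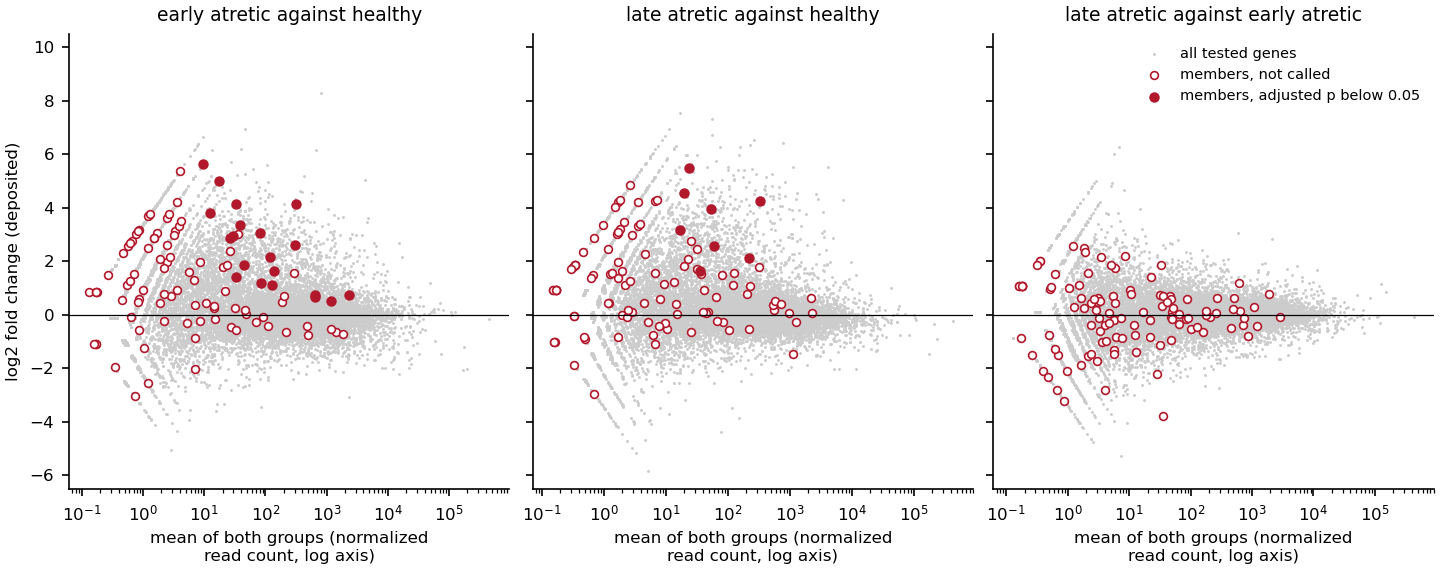
Deposited log2 fold change of every tested gene against the mean of both groups (normalized read count, log axis) in the 3 comparisons; grey points are all genes, red circles the cytokine and receptor genes, filled where the adjusted p was below 0.05. The 20 filled circles of early and the 8 of late atresia all lie above 0, and late against early atresia has none.

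Most ligands were hardly counted at all, whereas most receptors were. In 12 of the 67 ligands no read was listed in any group, and in another 17 the highest group mean stayed under 1. Only 16 ligands reached a mean of 10 in any group. Of the 57 receptors, 1 (IL1RL2) was at 0 throughout and 31 reached a mean of 10. Classical lymphocyte cytokines such as IL2, IL3, IL5, IL9 and IL21 were among those at 0, and IL6, the acute-phase cytokine, had 1 read in healthy and none in atretic follicles. TNF, a macrophage cytokine, had means of 0.32, 2.09 and 3.09 in healthy, early atretic and late atretic follicles, where 0.32 is a single read. At this depth no change in such genes could be seen unless it was large. In early atretic follicles 5 of 46 ligands tested (10.9%) and 13 of 56 receptors (23.2%) were higher, beside 8.59% of all genes. In late atretic ones 2 of 51 ligands (3.92%) and 5 of 55 receptors (9.09%) were higher, beside 3.98%, so the shares for ligands lay near those of all genes.

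**Figure D2:**
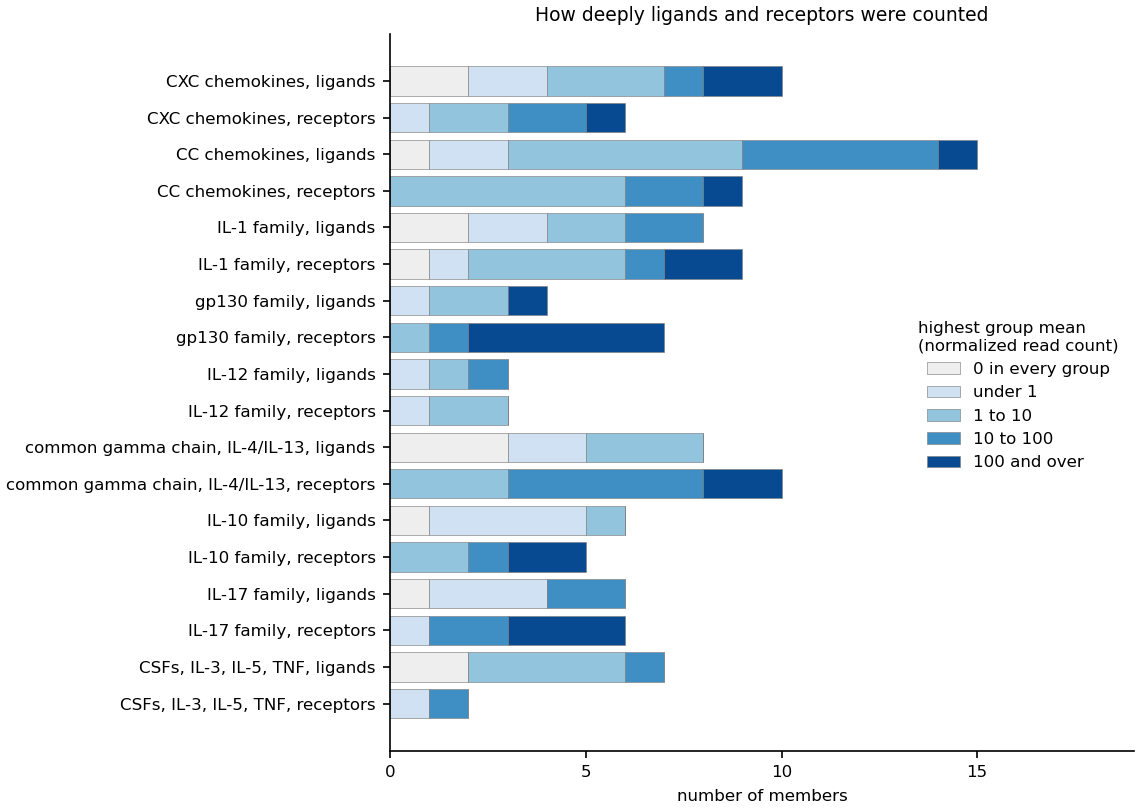
Number of genes by family and role, coloured by the highest of the 3 group means (normalized read count). Among the gp130 family receptors 5 of 7 reached 100, whereas no ligand of the IL-10 or common gamma chain families reached 10.

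The chemokine CXCL12, which holds and attracts cells that carry the receptor CXCR4, had the smallest adjusted p of all members in both atretic stages. Its mean was 34.2 normalized reads in healthy, 606 in early atretic and 640 in late atretic follicles. The atretic groups thus lay close together and far above the healthy one. The authors' deposited table gave a log2 fold change of 4.14 ± 0.64 in early atresia (adjusted p = 1.24e-08), a 17.7-fold rise. In late atresia the authors' deposited table gave 4.26 ± 0.57 (adjusted p = 3.46e-11), or 19.3-fold. Between the stages it gave 0.14 ± 0.71, with an interval of -1.25 to 1.52, so a difference of either sign within that range is not excluded. Late atretic means are set beside the others here from a second table, in which the healthy means were 0.972 of those in the first.

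CXCR4 rose with its ligand. Its means were 85.4, 522 and 355 in healthy, early atretic and late atretic follicles. The rise in the authors' deposited table was 2.61 ± 0.64 (adjusted p = 0.000955) in early and 2.10 ± 0.63 (adjusted p = 0.0266) in late atresia, 6.11-fold and 4.29-fold. ACKR3, the atypical receptor that takes up and clears CXCL12, followed another course. It had 6.54 normalized reads in healthy, 46.7 in early atretic and 9.64 in late atretic follicles, so the early atretic mean stood alone. The deposited log2 fold change in the authors' table was 2.86 ± 0.83 (adjusted p = 0.00744) in early and 0.60 ± 1.21 (adjusted p = 0.978) in late atresia. For ACKR3 the stages were also set against each other: late against early atresia gave -2.23 ± 0.57 in the authors' deposited table, with an interval of -3.35 to -1.12 and an adjusted p of 0.0623, outside the threshold. Stromal cells are a known source of CXCL12. Of 12 stromal markers, 7 were higher in early (58.3%) and 5 in late atretic follicles (41.7%), beside 8.59% and 3.98% of all genes. COL3A1 was among them in both, and no stromal marker was at 0 in any group. LUM, DPT, FAP, TCF21 and POSTN were called in neither stage. FAP had 3.47, 10.4 and 3.25 in healthy, early atretic and late atretic follicles, TCF21 40.2, 45.5 and 21.9, and POSTN 434, 489 and 393. Which cells the CXCL12 reads came from was not tested.

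CXCL8, which calls neutrophils through CXCR2, had the same outline as ACKR3 without passing the test. Its means were 7.94, 64.6 and 4.58 in healthy, early atretic and late atretic follicles. In the authors' deposited table early against healthy gave 3.02 ± 1.26 (adjusted p = 0.101), and late against early -3.77 ± 1.22 (unadjusted p = 0.00193, adjusted p = 0.327). CXCR2 had 2.78, 8.37 and 2.91 normalized reads. Over 9 neutrophil markers the summed mean was 524, 1938 and 781, with MPO at 0 in every group, and most of it came from LTF with 465, 1164 and 384. Without LTF the sum was 59, 774 and 397. Of the neutrophil markers, 4 of 6 tested were higher in early (66.7%) and 3 of 8 in late atretic follicles (37.5%). Of all genes 8.59% and 3.98% were higher. The early calls were TREM1, MMP9, LTF and ELANE. The late calls were TREM1 (6.19, 78.7 and 79.3), MMP9 (6.56, 99.9 and 68.1) and S100A9 (19.7, 349 and 158). LTF, ELANE (4.14, 26.7 and 5.76), CXCR2, CSF3R (7.04, 10.04 and 9.99) and S100A8 were not called in late atresia. S100A8 and S100A9 had no p-value in early atresia. LTF was the one marker lower in late than in early atretic follicles by the adjusted p (log2 fold change -1.55, adjusted p = 0.000233 in the authors' deposited table). CXCR2 is itself among these markers. CXCL16, the ligand of CXCR6, had means of 155, 212 and 314, and CXCL10, an interferon-induced ligand of CXCR3, 3.93, 9.74 and 5.16. Neither passed the test, nor did CXCR6 with 12.9, 16.1 and 16.5.

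**Figure D3:**
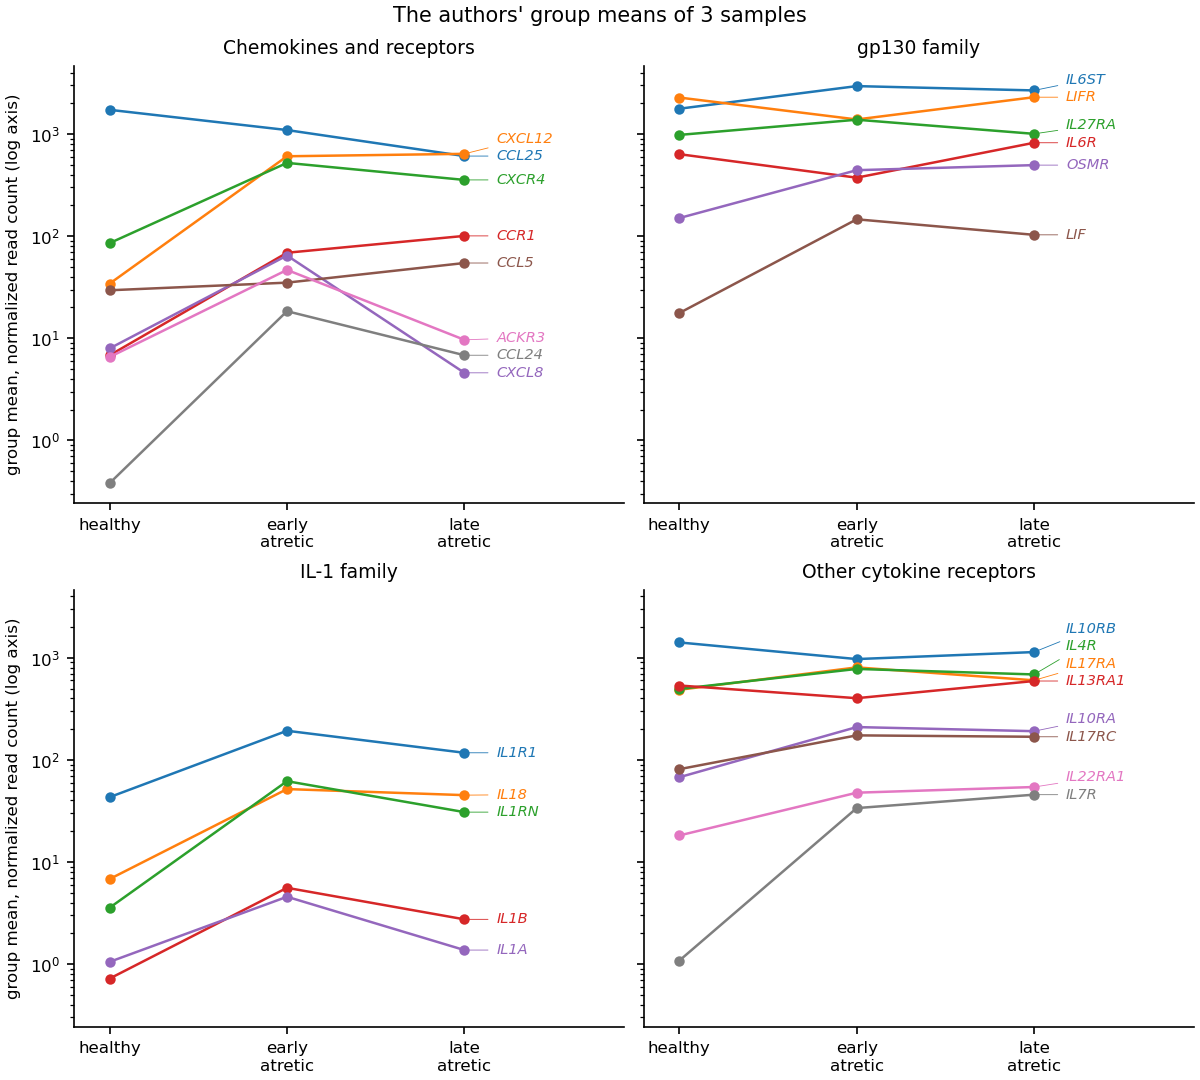
The authors' mean normalized read count (log axis) in healthy, early atretic and late atretic follicles for named chemokine, gp130, IL-1 and other receptor genes; each point is 1 group mean of 3 samples, and no spread is plotted because none was used. CXCL12 goes from 34.2 to 606 and 640, whereas ACKR3 and CXCL8 peak in early atresia and CCL25 goes from 1728 to 609.

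Among CC chemokine receptors, CCR1 rose in both stages. It binds CCL3 and CCL5 and is carried by monocytes, macrophages and T cells. CCR1 had 6.8, 68.7 and 101 normalized reads in healthy, early atretic and late atretic follicles. That was a deposited log2 fold change in the authors' table of 3.35 ± 0.87 (adjusted p = 0.00224) and 3.93 ± 1.04 (adjusted p = 0.00716). CCR6, a receptor of T and B cells, went from 2 healthy reads to means of 6.96 and 13.0, with an adjusted p of 0.141 in late atresia in the authors' deposited table. CCR10, a receptor for CCL27 and CCL28, had 9.35, 7.84 and 4.24, and CCR8 had 5.7, 4.6 and 4.63, and neither was called. Macrophage markers moved with CCR1: 9 of 16 tested were higher in early (56.2%) and 9 of 15 in late atretic follicles (60%). Of all genes 8.59% and 3.98% were higher. No macrophage marker was lower, and none was at 0 in any group.

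The CCR1 ligands CCL3 and CCL5 did not pass the test. CCL3 had 8.37, 43.5 and 19.2 normalized reads, with adjusted p-values of 0.165 and 0.756 in the authors' deposited tables. CCL5 had 29.5, 35.0 and 54.5, with 0.25 ± 0.74 and 0.93 ± 0.77 on the deposited log2 scale of the authors' tables (adjusted p = 0.932 and 0.813). One CC ligand of 14 tested was called (7.14%, beside 8.59% of all genes). CCL24, an eosinophil attractant that acts on CCR3, had 1 healthy read, a mean of 18.4 in early and 6.81 in late atretic follicles. The authors' deposited tables gave 5.63 ± 1.75 (adjusted p = 0.0149) in early and 4.22 ± 1.94 (adjusted p = 0.304) in late atresia. With 1 healthy read the early ratio of 48.4 had a counting interval of 9.02 to 2099, which covers counting error only. Its receptor CCR3 was listed at 0 in healthy follicles, 1.56 in early and 0.34 in late ones.

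CCL25, a chemokine best known from thymus and small intestine, held the most reads of all chemokines in healthy follicles and went the other way. Its mean was 1728 in healthy, 1095 in early atretic and 609 in late atretic follicles. The decline did not pass the adjusted threshold: the authors' deposited table gave -0.66 ± 0.57 (adjusted p = 0.569) in early and -1.46 ± 0.67 (unadjusted p = 0.0285, adjusted p = 0.296) in late atresia. CCR9, the receptor of CCL25, had 0.99, 4.01 and 2.48 normalized reads. CCL21, which guides cells with CCR7 along lymph vessels, had 15.8, 14.1 and 49.6, and its adjusted p in late atresia was 0.557 in the authors' deposited table. The sources used here do not say how reads shared by similar neighbouring genes such as CCR1 and CCR3 were assigned, so low values of such genes are uncertain.

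**Figure D4:**
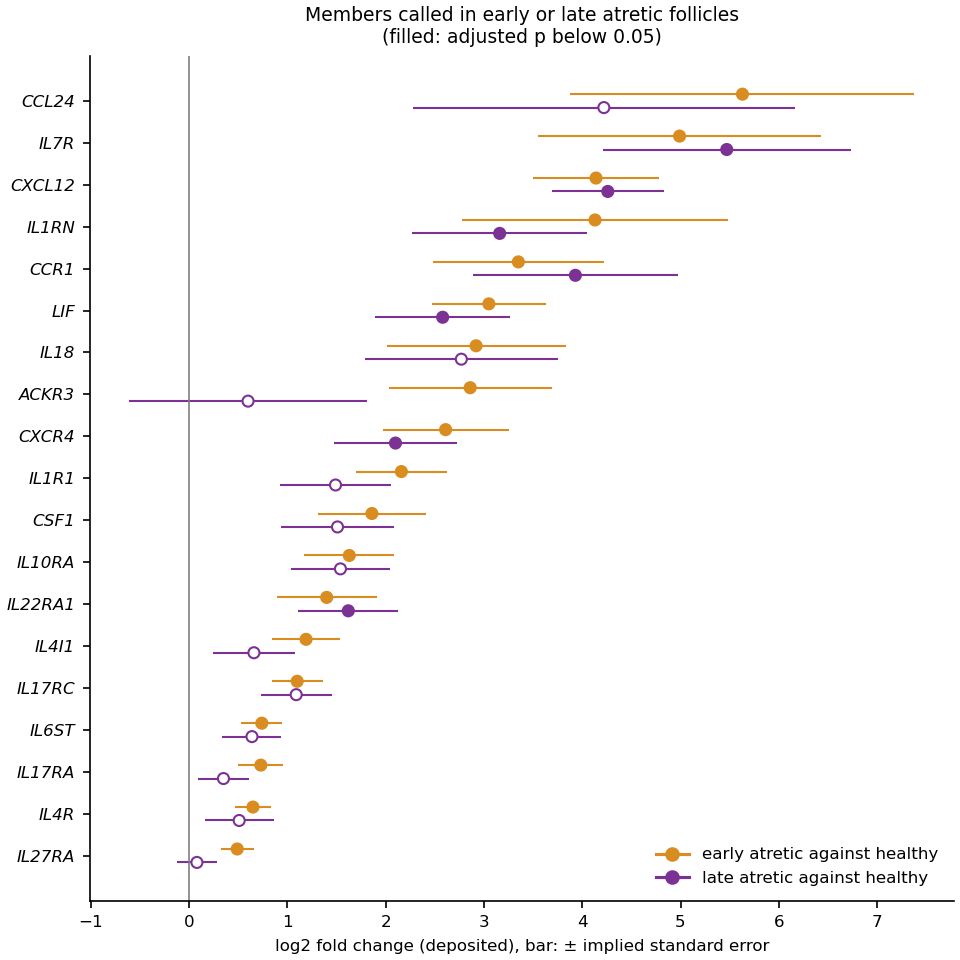
Deposited log2 fold change (log2 scale, bars ± the implied standard error) of 19 of the 20 genes called in any comparison, early atretic (orange) and late atretic (purple) against healthy follicles; filled points had an adjusted p below 0.05. All 19 are filled in early and 7 in late atresia, and all late values are above 0.

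In the gp130 family, whose receptors share the chain IL6ST (gp130), the ligand LIF rose in both stages. Leukemia inhibitory factor had 17.6 normalized reads in healthy, 146 in early atretic and 103 in late atretic follicles. Against healthy follicles the authors' deposited table gave 3.05 ± 0.58 (adjusted p = 1.02e-05) in early and 2.58 ± 0.69 (adjusted p = 0.00808) in late atresia, 8.29-fold and 6.02-fold. Of the chains of its receptor, IL6ST was called in early atresia alone and LIFR in neither stage, and the chains were not tested against each other. IL6ST had 1771, 2950 and 2676, a deposited log2 fold change in the authors' tables of 0.74 ± 0.21 (adjusted p = 0.0082) in early and 0.64 ± 0.30 (adjusted p = 0.315) in late atresia. LIFR, the chain that binds LIF, had 2279, 1390 and 2297, and the -0.71 ± 0.39 (adjusted p = 0.254) that the authors' deposited table gives for early atresia missed the threshold.

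OSMR, which pairs with IL6ST to receive oncostatin M, had 150, 443 and 496 normalized reads. Its rise missed the threshold in the authors' deposited tables, with 1.56 ± 0.60 (adjusted p = 0.0669) in early and 1.76 ± 0.65 (adjusted p = 0.112) in late atresia. IL27RA, which pairs with IL6ST to receive IL-27, had 981, 1382 and 1005 and was called in early atresia only, at 0.49 ± 0.17 (adjusted p = 0.0325) in the authors' deposited table. Late against early, the authors' deposited table gave -0.41 ± 0.19 (unadjusted p = 0.0328, adjusted p = 0.842), so the stages were not shown to differ. IL6R, the chain that binds IL-6, had 635 in healthy, 374 in early atretic and 822 in late atretic follicles. Its early mean lay below both others, and the authors' deposited table gave 1.19 ± 0.38 for late against early atresia (unadjusted p = 0.00171, adjusted p = 0.306). IL11RA, the receptor of IL-11, stayed between 76.8 and 96.0.

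In early atresia 1 of 5 ligands tested (20%), 1 of 8 receptors (12.5%) and 1 of 2 antagonists (50%) of the IL-1 family were higher. Of all genes 8.59% were higher, and groups this small show no pattern by role. IL1R1, the receptor chain that signals on binding IL-1, had 43.1, 193 and 117 normalized reads in healthy, early atretic and late atretic follicles. The authors' deposited table gave 2.16 ± 0.46 (adjusted p = 8.42e-05) in early and 1.49 ± 0.56 (adjusted p = 0.133) in late atresia. IL1RN, the antagonist that occupies this receptor without signalling, had 3.56, 61.9 and 30.8. It was called in both stages of the authors' deposited tables, with 4.13 ± 1.35 (adjusted p = 0.0224) and 3.16 ± 0.89 (adjusted p = 0.0131). IL18, a cytokine released by inflammasomes, had 6.8, 51.8 and 45.1, with 2.92 ± 0.91 (adjusted p = 0.0145) in early and 2.77 ± 0.98 (adjusted p = 0.0858) in late atresia in the authors' deposited tables.

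The agonists of IL1R1 were counted in few reads. IL1A had 3 reads in the healthy libraries and means of 1.05, 4.56 and 1.37. IL1B had 2 healthy reads and means of 0.72, 5.58 and 2.74, with adjusted p-values of 0.365 and 0.933 in the authors' deposited tables. IL1RAP, the accessory chain that IL1R1 needs to signal, had 270, 171 and 180, and IL18BP, a secreted trap for IL-18, had 128, 94.8 and 83.9. Neither passed, and both deposited values were below 0 in the authors' tables in both stages. In the order of protein-coding genes of the assembly NDDB_SH_1, IL1R1 stands in an unbroken row of 5 IL-1 receptor genes with IL1R2, IL1RL2, IL1RL1 and IL18R1, and no other gene of that row was called or passed a mean of 6.59. IL1RN stands among 8 members spanning 10 genes, from IL1A and IL1B through IL37 and the IL-36 genes, of which it alone was called.

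Among receptors of the IL-10 family, IL10RA, the chain that binds IL-10 and is mostly found on leukocytes, had 67.6, 210 and 191 normalized reads. The authors' deposited tables gave 1.63 ± 0.46 (adjusted p = 0.00566) in early and 1.54 ± 0.50 (adjusted p = 0.0505) in late atresia, so the late value missed the threshold by little. IL10RB, the second chain, shared with other cytokines of the family, had 1415, 972 and 1138, with -0.54 ± 0.22 (adjusted p = 0.0815) in early atresia in the authors' deposited table. IL22RA1, the chain that binds IL-22 on epithelial cells, had 18.2, 47.7 and 54.2 and was called in both stages of the authors' deposited tables, with 1.40 ± 0.51 (adjusted p = 0.0472) and 1.62 ± 0.51 (adjusted p = 0.0366). The ligands of both were near 0: IL10 had 0.99, 3.33 and 3.04, and IL22 was at 0 except for 0.34 in late atretic follicles.

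The receptor of IL-7, a survival factor of lymphocytes, had the largest deposited log2 fold change of any member in late atresia. IL7R had 3 reads in the healthy libraries, a mean of 1.08, and means of 33.7 in early and 45.6 in late atretic follicles. The authors' deposited tables gave 4.99 ± 1.44 (adjusted p = 0.00703) and 5.47 ± 1.26 (adjusted p = 0.000998). Counting error alone put the early ratio of 31.2 between 10.7 and 158 and the late ratio of 43.0 between 15.0 and 220. IL2RG, the common gamma chain that pairs with IL7R, had 10.3, 37.4 and 54.8, and IL2RB, a chain of the IL-2 and IL-15 receptors, had 8.97, 30.8 and 37.0. Neither was called, although IL2RB came close in the authors' deposited tables with adjusted p-values of 0.0584 and 0.0649. The summed mean of 16 T, B and NK cell markers was 481, 822 and 1111. CD79B was at 0 in healthy and MS4A1 at 0 in early atretic follicles. PTPRC made up 309, 359 and 556 of the sum, and the other 15 markers 172, 463 and 555. Among these, CORO1A had 67.9, 288 and 327 and was the 1 marker called higher in each stage (6.25%, beside 8.59% and 3.98% of all genes). CD3E (16.4, 20.3 and 28.8) and LCK (32.5, 37.7 and 43.1) were not called.

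IL4R, the chain that binds IL-4 and also takes part in IL-13 signalling, rose modestly in early atresia. It had 495, 778 and 687 normalized reads, and the authors' deposited table gave 0.65 ± 0.18 (adjusted p = 0.00426) in early and 0.51 ± 0.35 (adjusted p = 0.698) in late atresia. Its partner IL13RA1 had 535, 402 and 593 and did not pass. Both IL-17 receptor chains that together receive IL-17A rose in early atresia. IL17RA had 486, 806 and 602, with 0.73 ± 0.23 (adjusted p = 0.0185) in early and 0.35 ± 0.26 (adjusted p = 0.743) in late atresia in the authors' deposited tables. IL17RC had 81.1, 174 and 168, with 1.10 ± 0.26 (adjusted p = 0.000727) in early and 1.09 ± 0.36 (adjusted p = 0.0558) in late atresia in the authors' deposited tables. IL17A itself was counted in 1 healthy read and 0.34 in late atretic follicles. IL17D, a ligand of the same family, had 15.3, 27.9 and 15.1 and was not called.

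CSF1, which sustains macrophages, had 19.6, 70.9 and 54.1 normalized reads. The authors' deposited tables gave 1.86 ± 0.55 (adjusted p = 0.00932) in early and 1.51 ± 0.57 (adjusted p = 0.131) in late atresia. IL34, the other ligand of the same receptor, had 2 healthy reads, then means of 7.73 and 6.94, with adjusted p-values of 0.142 and 0.296 in the authors' deposited tables. Their receptor CSF1R, which the naming rule does not take in and which is also one of the macrophage markers, had 44.9, 408 and 933 and was called in both stages of the authors' deposited tables, with 3.19 ± 0.65 (adjusted p = 3.68e-05) and 4.42 ± 1.34 (adjusted p = 0.0277). IL4I1, the amino acid oxidase, had 51.5, 118 and 78.9, with 1.19 ± 0.35 (adjusted p = 0.00849) in early and 0.66 ± 0.42 (adjusted p = 0.635) in late atresia in the authors' deposited tables.

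Over all genes the higher calls numbered 1494 in early and 692 in late atresia. For 12 of the 20 members called, the call held in early atresia alone: ACKR3, CCL24, CSF1, IL10RA, IL17RA, IL17RC, IL18, IL1R1, IL27RA, IL4I1, IL4R and IL6ST. How many of all genes were called in early atresia alone is not given here, so this split is not shown to be particular to the members. All 12 had a deposited log2 fold change above 0 in late atresia as well, and 7 had an unadjusted p below 0.05 there. The test of the difference is late against early atresia, in which none of the 20 passed in the authors' deposited table. For the 8 genes called in both stages the size of the difference was at most 0.97 on the log2 scale, with wide intervals: that of LIF ran from -1.69 to 0.79 and that of CXCR4 from -1.55 to 0.55.

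**Figure D5:**
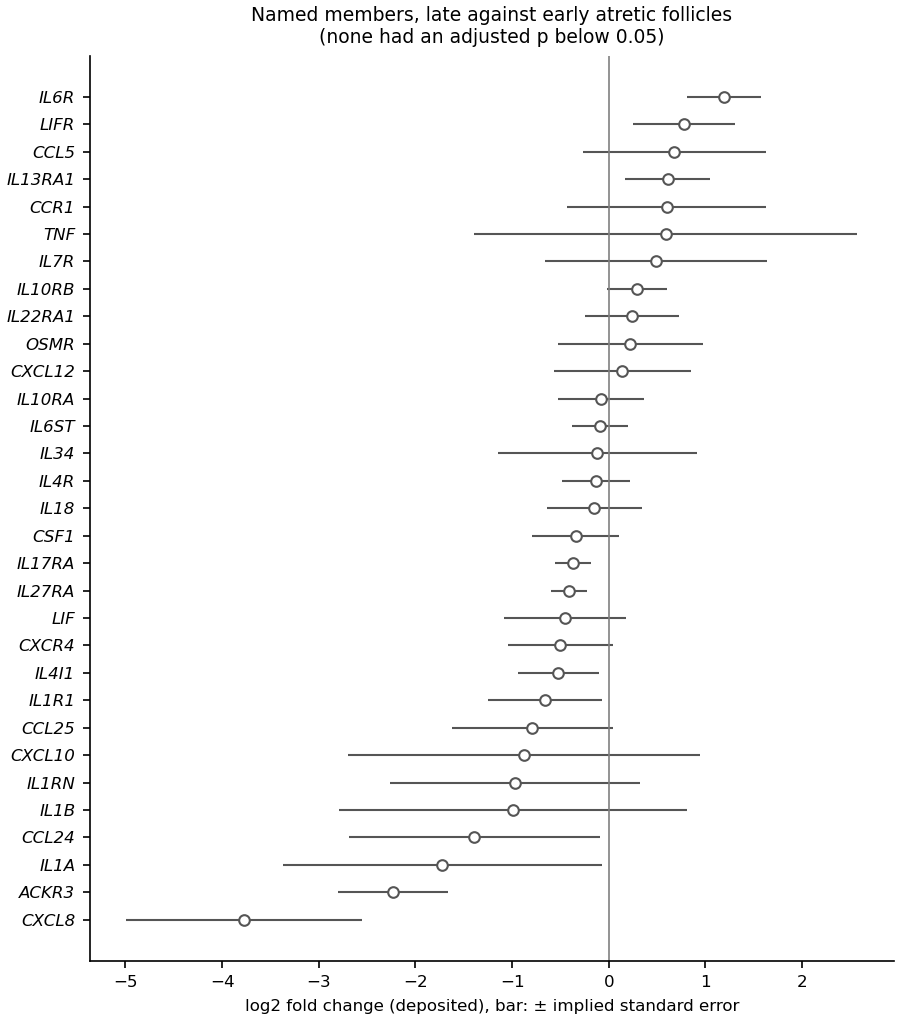
Deposited log2 fold change of late against early atretic follicles (bars ± the implied standard error) for 31 named genes, none with an adjusted p below 0.05. CXCL8 at -3.77 and ACKR3 at -2.23 lie lowest and IL6R at 1.19 highest.

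Genes that signal downstream of these receptors were taken from lists. In a list of 27 genes of IL-1 receptor and NF-kB signalling, 5 were higher in early (18.5%) and 1 in late atretic follicles (3.7%) and none was lower, beside 8.59% and 3.98% of all genes tested. REL, an NF-kB subunit of leukocytes, was called in both, from 9.11 to 75.7 and 56.6 normalized reads (3.06 ± 0.45, adjusted p = 1.42e-09, and 2.68 ± 0.61, adjusted p = 0.000813, in the authors' deposited tables). TOLLIP and NFKB2 followed in early atresia, with 0.73 ± 0.15 (adjusted p = 2.74e-05) and 0.84 ± 0.20 (adjusted p = 0.000908) in the authors' deposited table. Of 23 JAK, STAT and SOCS genes, 5 were higher (21.7%) and 1 lower in early and 3 higher (13%) in late atresia. Over all genes 8.59% were higher and 4.35% lower in early atresia, and 3.98% were higher in late atresia. The 1 lower gene of 23 thus lay near the share of all genes.

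SOCS3, which STAT3 induces and which blocks signalling from gp130, had 254, 1281 and 671 normalized reads, with 2.33 ± 0.37 (adjusted p = 6.41e-08) in early and 1.44 ± 0.45 (adjusted p = 0.0343) in late atresia in the authors' deposited tables. STAT6, the factor that IL-4 activates, had 552, 1043 and 961, with 0.92 ± 0.21 (adjusted p = 0.000463) and 0.84 ± 0.22 (adjusted p = 0.00541) in the authors' deposited tables. STAT3 had 1331, 2512 and 1911 and in the authors' deposited tables passed in early atresia alone (0.92 ± 0.23, adjusted p = 0.00163). SOCS4 was the one that was lower, from 663 to 423 in early atresia (-0.65 ± 0.21, adjusted p = 0.023 in the authors' deposited table). Of 25 TNF receptor genes and cytokine receptors or ligands that the naming rule leaves out, 9 were higher in early (36%) and 5 in late atresia (20%), beside 8.59% and 3.98% of all genes. None was lower, beside 4.35% and 0.397% of all genes. Besides CSF1R they included CRLF2, a receptor chain for TSLP, with 1.79, 66.7 and 23.5 and an adjusted p of 0.000931 and 0.0474 in the authors' deposited tables. CSF2RA, the chain that binds GM-CSF, had 22.4, 112 and 108, with adjusted p-values of 0.00143 and 0.0262 there. CD74, which serves as a receptor for MIF and as the invariant chain of antigen presentation, had 110, 747 and 1281, with adjusted p-values of 0.028 and 0.000484 in the authors' deposited tables. CMKLR1, the chemerin receptor, had 4.51, 51.0 and 79.1, with adjusted p-values of 0.00622 and 0.0173 there. The ligands TSLP and CSF2 did not exceed a mean of 0.34 and 2.55 in any group.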

How the data were processed

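Total RNA of granulosa cells was extracted with Trizol and sequenced by Illumina protocols, per the labels. The submitters' processing notes list Bowtie 0.12.2, mm8 and mm9 without saying what each was used for; the last 2 are mouse builds, and the animals were buffalo. Counter, annotation, strand setting and test: not given in the sources used here. The deposited tables hold, per the file headers, 1 normalized read count per group (a signal read as the mean over 3 libraries of counts divided by a size factor), a log2 fold change of the first group over the second, a p-value and an adjusted p-value, all made by the authors. Each table had 21253 rows; 452 repeats were dropped. Where both means exceeded 50 the deposited log2 value was within 0.01 of the log2 ratio of means, and adjusting the p-values anew by Benjamini-Hochberg gave the deposited adjusted p within a relative difference of 7.7e-05.

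Because no column holds a single sample (0 such columns were left out), no count model was fitted; the authors' calls at an adjusted p below 0.05 were used within each table. Healthy means in the late table were 0.972 of those in the early table; early and late means were 1.01 and 1.05 times as large in the table of late against early follicles. Implied standard errors, intervals at 95% and bins by mean were computed in Python 3.11.15 with pandas 2.3.3, numpy 2.4.6 and scipy 1.17.1, and tested on simulated data. Ranges of reads follow from the value of 1 read, and intervals on them cover counting error only.

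Members were matched by symbol; 121 of 131 symbols stand in the RefSeq gene table of NDDB_SH_1, which was used for names and gene order, and no further member was found among LOC identifiers. Named genes are those called in any comparison, the 10 with the largest group mean and a list of 19 well-known ones; any others were chosen after their values were seen. The values of 1 member that enters the counts are not reported here. From the lists of other genes, up to 3 with the smallest adjusted p per stage are named. Members, lists and tests were chosen with earlier results of these data known.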

Additional observations from a re-analysis of the deposited data

How the results depend on the processing

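Counts of called genes and medians were recomputed with a threshold of 0.01, with a log2 fold change of at least 1, with p-values adjusted anew, with genes of a mean of at least 10 in the higher group, with a pseudocount of 1 and after centring. With the threshold at 0.01 the count higher in late atretic follicles went from 8 to 4, and that in early atretic ones from 20 to 14. Limiting the test to genes with a mean of at least 10 brought 1 gene under the threshold in late against early atresia, ACKR3 (authors' deposited p adjusted by Benjamini-Hochberg to 0.048), because fewer genes were tested. The same limit brought IL10RA (0.0389) and IL17RC (0.0429) under it in late atresia and gave 11 genes higher there. At 0.01, the named calls lost were CCL24, IL17RA, IL18, IL1RN, IL22RA1 and IL27RA in early and CXCR4, IL1RN and IL22RA1 in late atresia. The median log2 fold change of all tested members was 1.11 in early and 1.10 in late atresia, beside 0.019 and 0.0318 for all genes tested. It was 0.73 in both with a pseudocount of 1, and 0.94 and 1.10 with genes at 0 in a group held at their bound against 3 reads, a setting chosen after seeing the data. No named value changed sign except IL17RC in late against early atresia (0.00 to -0.05 after centring).

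No paired analysis was possible because the tables hold group means and no values per sample, and for the same reason leaving out each replicate in turn was not run. Adding LOC identifiers gave no value, since none matched. Depth limits the members with few reads: 22 had a highest mean under 1 and 43 one between 1 and 10.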

Other observations

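Some members were listed at 0 in healthy follicles and counted in atretic ones, at levels too low for a call. CXCL14, a chemokine of epithelia, had means of 7.93 in early and 3.08 in late atretic follicles, with an adjusted p of 0.153 in early atresia in the authors' deposited table. IL1RL1, the receptor of IL-33, had 1.23 and 5.4 normalized reads, and IL33 itself had 6.07, 7.89 and 13.1 in healthy, early atretic and late atretic follicles. CCR4, a receptor of T helper cells, had 2.45 and 3.69, and CSF2, which encodes GM-CSF, 2.55 and 0.69. IL22RA2, a soluble decoy for IL-22, went the other way, with 4 healthy reads and 0 in both atretic groups. IL18RAP, the accessory chain of the IL-18 receptor, had 0.76, 3.08 and 13.7, with an adjusted p of 0.0746 in late atresia in the authors' deposited table. These genes were chosen after their values were seen.

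JAK3, the kinase that the common gamma chain uses and that is best known from lymphocytes, had 37606 normalized reads in healthy, 10593 in early atretic and 14602 in late atretic follicles, although the common gamma chain gene IL2RG had 10.3, 37.4 and 54.8. The authors' deposited tables gave -1.83 ± 0.96 (adjusted p = 0.23) and -1.32 ± 0.69 (adjusted p = 0.444) for it, so neither stage passed the test, and JAK3 too was chosen after its values were seen. Of 15 endothelial markers, 3 were higher in early (20%) and 1 in late atretic follicles (6.67%), beside 8.59% and 3.98% of all genes. Their summed means were 2082, 3258 and 1885, with none at 0. VWF made up 1772, 2235 and 1174 of these, and the other 14 summed to 310, 1024 and 710. Of 7 theca markers, 6 were tested in early atresia, where 1, ALPL, was lower, beside 4.35% of all genes. None passed in late atresia, where 0.397% of all genes were lower. Their summed means were 5442, 4144 and 4442, or 2491, 2861 and 3155 without ALPL. STAR made up 57.9, 717 and 1286 of the latter and had no p-value in early atresia. The rise of that sum was not shared by LHCGR (481, 90.6 and 317), INSL3 (847, 863 and 476) or PTCH1 (981, 954 and 946).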
